A study of Mus musculus with 6 samples.

Results

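The genes described here are the chemokine receptor gene Ccr2 (ENSMUSG00000049103) and 4 chemokine genes of the monocyte-recruiting group, Ccl2 (ENSMUSG00000035385), Ccl7 (ENSMUSG00000035373), Ccl8 (ENSMUSG00000009185) and Ccl12 (ENSMUSG00000035352). They were taken by symbol, 5 of the 33696 features of the count matrices. The matrices come from CD45+, DAPI- cells sorted from mouse mammary tumours and captured with 10x 3' V4 on-chip multiplexing. The series title names MERTK inhibition and cyclophosphamide in triple negative breast cancer, and the labels name each library only by a treatment code. The protocol gives multiplexing barcode sets only for Combined, CTX, MRX and VC, and no label names a run. Differences between these libraries and the remaining ones cannot be told apart from a possible difference between runs. The protocol, worded alike for all libraries, mentions mice at day 7 dosed 3 h before harvest, and the d18 in the names of the other two libraries (ctxd18t, combod18t) was taken to mean day 18. Doses, strain, age and the number of pooled animals are not given in the sources used here, and the codes are used as they stand. Each label has 1 library, so no spread between animals could be measured and no test between libraries was possible. Counts of VC were not analysed here.

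CCR2 is a receptor on classical monocytes that lets them leave the bone marrow and follow its ligands into inflamed tissue and tumours. CCL2 and CCL7 are the main ligands that draw these cells, and CCL12 is a further mouse ligand of CCR2. Mouse CCL8 belongs to the same gene cluster and family, but is known chiefly as a ligand of CCR8. Many tumour macrophages arise from such recruited monocytes and lower Ccr2 as they mature, and macrophages themselves can secrete the ligands.

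In RefSeq's annotation of GRCm38 the 4 ligand genes stand in the order Ccl2, Ccl7, Ccl12 and Ccl8 on chromosome 11, with Ccl11 between Ccl7 and Ccl12, and Ccr2 lies on chromosome 9. The deposited matrices were made on GRCm39, so these coordinates are not those of the count files. The 250 bases before the start sites of Ccl8 and Ccl12 (both on the + strand, RefSeq, GRCm38.p6) are shown because no such sequence was at hand for Ccl2 and Ccl7. Capitals mark TATAAA, the core promoter element known by its first letters. Ccl8 spans chr11:82114935-82115184 and Ccl12 spans chr11:82101595-82101844.
Ccl8: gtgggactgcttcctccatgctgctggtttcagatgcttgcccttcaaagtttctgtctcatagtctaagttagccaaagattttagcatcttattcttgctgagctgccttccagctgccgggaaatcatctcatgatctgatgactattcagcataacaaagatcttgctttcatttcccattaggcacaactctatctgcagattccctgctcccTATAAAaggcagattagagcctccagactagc
Ccl12: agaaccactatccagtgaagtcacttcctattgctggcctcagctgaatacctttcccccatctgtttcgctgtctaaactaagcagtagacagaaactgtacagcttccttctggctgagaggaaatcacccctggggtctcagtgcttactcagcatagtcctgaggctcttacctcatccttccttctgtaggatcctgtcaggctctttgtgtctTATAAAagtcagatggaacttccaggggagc
TATAAA began 32 bases before the start site in Ccl8 and 31 bases before it in Ccl12, and it occurs on either strand in 13.6% of the 32851 windows of 300 bases in the table. Of the 5 genes, 3 had such a window (Ccl8, Ccl12 and Ccr2). None of these 3 windows held the letters of an NF-kB motif (GGG, any 5 bases, CC, in 50.8% of all windows), a STAT motif (TTC, any 3 bases, GAA, 8.3%), an AP-1 motif (TGA, any base, TCA, 7.81%) or an interferon response motif (GAAA, any 2 bases, GAAA, 3.44%) on either strand. TATAAA was looked for after the windows had been seen.

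Of 27348 barcodes in the 5 libraries, 25653 cells passed the filters and fell into 24 clusters, grouped into classes by marker genes with the 5 genes left out of the clustering. Library totals lay between 39820290 UMIs (MRX) and 100733879 UMIs (CTX), and a UMI of Ptprc, which encodes CD45, was seen in 95.5% to 98.3% of cells. The monocyte-macrophage-like class held 7769 cells in 4 clusters: 1374 (MRX), 4262 (CTX), 1165 (Combined), 747 (ctxd18t) and 221 (combod18t). All 14 monocyte and macrophage markers, which also served to name the class, had at least 1 count in it in every library. So did all 7 plasmacytoid dendritic markers, so detection alone does not set the class apart. The share of this class among kept cells ranged from 5.73% in combod18t to 50.1% in CTX. A further 2 clusters (1097 cells) carried macrophage transcripts beside those of T cells or plasmacytoid dendritic cells at more than 1.5 times the usual depth and were left out of the classes. CTX and combod18t shared 34 barcodes and Combined and ctxd18t shared 21, while all other pairs shared 0.

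Ccl2, Ccl7, Ccl8 and Ccl12 were highest in monocyte-macrophage-like cells among the named leukocyte classes, and Ccr2 spread over several lineages. Levels are counts of the summed class scaled to 1000000 UMIs (CPM), with exact 95% Poisson intervals that cover counting error only. Ccl2 in monocyte-macrophage-like cells measured 284 CPM (MRX), 200 (CTX), 275 (Combined), 329 (ctxd18t) and 152 (combod18t). In the class with the next highest Ccl2, neutrophil-like or conventional dendritic-like cells, it measured 47.6, 132, 63.3, 40.2 and 11.2 CPM in the same order, and its interval did not overlap that of the monocyte-macrophage-like cells in any library. Single cells carried much of these lower values: without the cell with the most Ccl2 counts they were 32.5, 80.7, 28.9, 29.3 and 0.679 CPM, and in combod18t that cell held 16 of 17 counts. The levels of Ccl2 in B-like, T-like and NK-like cells were 0.528 to 5.55 CPM.

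**Figure D1:**
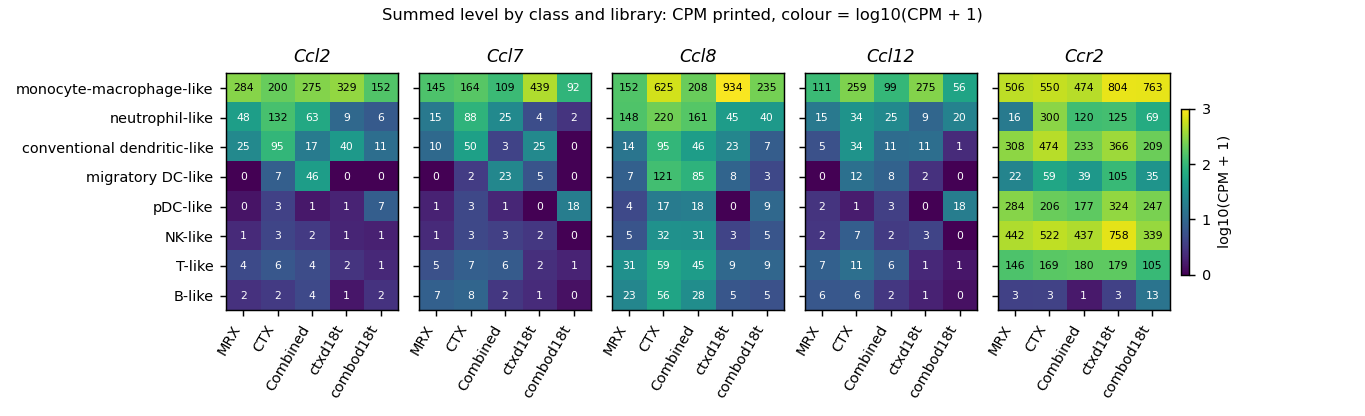
Level of each gene in 8 classes (rows) and 5 libraries (columns), with the CPM of the summed class printed in each cell and the colour on a log10(CPM + 1) scale. The ligands are highest in the monocyte-macrophage-like row, while Ccr2 is also high in NK-like and dendritic rows.

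In MRX and Combined, Ccl8 was not separated from the next class. Neutrophil-like cells held 148 CPM of Ccl8 in MRX against 152 in monocyte-macrophage-like cells, and 161 against 208 in Combined, with overlapping intervals in both libraries. In CTX, ctxd18t and combod18t the macrophage values of 625, 934 and 235 CPM stood above the neutrophil values of 220, 44.8 and 40.4. B-like cells, which are not a known source, held 4.56 to 55.8 CPM of Ccl8, which was 15.1% of the macrophage level in MRX, 8.93% (CTX), 13.7% (Combined), 0.580% (ctxd18t) and 1.94% (combod18t). T-like cells held 8.71 to 58.8 CPM, up to 20.6% of the macrophage level in MRX and 21.4% in Combined. These lymphocyte levels are taken as the background against which the ligands are read.

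Among the named leukocyte classes Ccl12 was low outside monocyte-macrophage-like cells. The next leukocyte class reached 15.1 CPM (MRX), 34.2 (CTX), 25.3 (Combined), 11.1 (ctxd18t) and 20.2 (combod18t), against 111, 259, 99.4, 275 and 55.7 CPM in monocyte-macrophage-like cells. For Ccl7 the macrophage values of 145, 164, 109, 439 and 92 CPM compared with 15.1, 87.9, 25.3, 25.1 and 17.8 CPM in the next class. In combod18t each of these next values rested on 1 cell: 1 neutrophil-like cell held 25 of 33 Ccl12 counts of its class (4.95 CPM without it), and 1 pDC-like (plasmacytoid dendritic-like) cell held 18 of 23 Ccl7 counts (4.05 CPM without it).

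Cluster 21, led by Col3a1, Sparc, Dcn and Col1a2, held 239 cells at 0.15 times the median depth of their libraries. Only 45 of its cells had a UMI of a fibroblast marker, and 182 of the other 194 had a macrophage marker UMI, so the cluster is called by its number. Most cells with a fibroblast marker had a macrophage marker UMI too: 1 of 1 (MRX), 8 of 11 (CTX), 7 of 7 (Combined), 11 of 20 (ctxd18t) and 3 of 6 (combod18t), so the split is not one of fibroblasts against macrophages. In its 20 cells with a fibroblast marker in ctxd18t, Ccl2 reached 2385 CPM (95% counting interval 2257 to 2517) and Ccl7 reached 803 CPM, while Ccl12 had 0 counts in 547686 UMIs. The highest cell held 498 of these 1306 Ccl2 counts, so the interval understates the uncertainty. In the 11 such cells of CTX, Ccl2 measured 3043 CPM and Ccl7 2649 CPM, against 91.5 CPM for Ccl12, all 16 of its counts in 1 cell. Ccl8 in these 11 cells measured 2649 CPM as well, with 351 of its 463 counts in 1 cell. The 6 such cells of combod18t gave 1765 CPM of Ccl2 and 3789 CPM of Ccl7, from a single cell in each case, with 109 and 234 counts. The cells of cluster 21 without a fibroblast marker UMI were higher in Ccl12: the 60 of CTX held 1298 CPM, with 64 of 111 counts in 1 cell, and the 44 of ctxd18t held 365 CPM. Their Ccl8 was 1490 CPM in ctxd18t, against 250 CPM in the cells with a marker. In CTX it was 2900 CPM (2550 to 3284), not separated from the 2649 CPM (2413 to 2901) of the cells with a marker. Over the whole cluster, Ccl12 was above the monocyte-macrophage-like level in CTX (488 CPM), Combined (132 CPM, intervals overlapping) and combod18t (136 CPM). In CTX 1 cell held 64 of the 127 counts, and without it the level was 248 CPM, below the 259 CPM of monocyte-macrophage-like cells. Without its highest cell Combined was at 84.9 CPM, below 99.4, and combod18t at 105 CPM, above 55.7. Cluster 21 as a whole held 23.1% of all Ccl2 counts in ctxd18t and 37.6% of all Ccl7 counts in combod18t. A few cells carried both: 7 of the 64 cells held 98.9% of the former, and 1 cell held 234 of the 262 counts of the latter. Fibroblast markers summed to only 2.47 to 5.34 CPM in the monocyte-macrophage-like class. The sort was for CD45, which fibroblasts lack.

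Monocyte-macrophage-like cells held most Ccl2 counts of every library: 93% (MRX), 78.9% (CTX), 86.6% (Combined), 66.4% (ctxd18t) and 51.2% (combod18t). Their share of Ccl8 counts was lowest in combod18t at 36.7%, where the 2 mixed clusters held 42.9%. Of Ccl12 counts they held 89.3% (MRX), 84.6% (CTX), 78.2% (Combined), 79.7% (ctxd18t) and 48.0% (combod18t). The mixed clusters held 0.646% to 42.9% of the counts of a ligand and are not part of the class.

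Ccr2 was highest in monocyte-macrophage-like cells in all 5 libraries, at 506 CPM (MRX), 550 (CTX), 474 (Combined), 804 (ctxd18t) and 763 (combod18t). NK-like cells followed with 442, 522, 437, 758 and 339 CPM, and the intervals of the 2 classes overlapped in ctxd18t. Conventional dendritic-like cells held 209 to 474 CPM and pDC-like cells 177 to 324 CPM. Ccr2 in B-like cells was 0.599 to 13.3 CPM. The class shares of Ccr2 counts also differed by library: monocyte-macrophage-like cells held 68.1% of them in CTX but 32.1% in combod18t, where T-like cells, 67.1% of the kept cells, held 32.1% as well.

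Within the 8 T-like clusters, Ccr2 differed by cluster. Cluster 9, led by Il1rl1, Foxp3 and Il2ra as in regulatory T cells, held 295 CPM (MRX), 456 (CTX), 398 (Combined), 482 (ctxd18t) and 347 (combod18t). Cluster 5, led by Gzmk and Cd8a, held 236, 294, 246, 425 and 327 CPM in the same order. Cluster 3, led by Lef1 as in naive T cells, held 2.98 to 11.4 CPM. All 3 clusters were seen in every library, and clusters 5 and 9 stayed above cluster 3 in each.

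Ccr2 in neutrophil-like cells measured 15.9 CPM over the 458 cells of MRX, 300 over 91 of CTX, 120 over 77 of Combined, 125 over 336 of ctxd18t and 68.6 over 292 of combod18t. A few cells carried these values: 1.97% (MRX) to 19.8% (CTX) of neutrophil-like cells had a Ccr2 UMI, and the 10% with the most counts held 84.6% of them in CTX and 100% in the other 4 libraries.

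The levels in monocyte-macrophage-like cells put the libraries in a different order for Ccl2 than for Ccl8 and Ccl12. Ccl8 measured 152 CPM (MRX), 625 (CTX), 208 (Combined), 934 (ctxd18t) and 235 (combod18t). Ccl12 measured 111, 259, 99.4, 275 and 55.7 CPM in that order. Both were high in CTX and ctxd18t and low in the other 3 libraries, but the class was made up of different clusters in each. Cluster 1, a cluster of the class led by complement genes and the one where Ccl8 was highest, was 16.7% of the class in Combined, 31.0% in CTX and 53.6% in MRX, and within it Ccl8 measured 989 CPM in Combined against 263 in MRX. Ccl7 was high in ctxd18t alone, at 439 CPM, with 92 to 164 CPM elsewhere. Ccl2 was lowest in combod18t and next lowest in CTX, and MRX and Combined did not differ beyond their counting intervals.

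**Figure D2:**
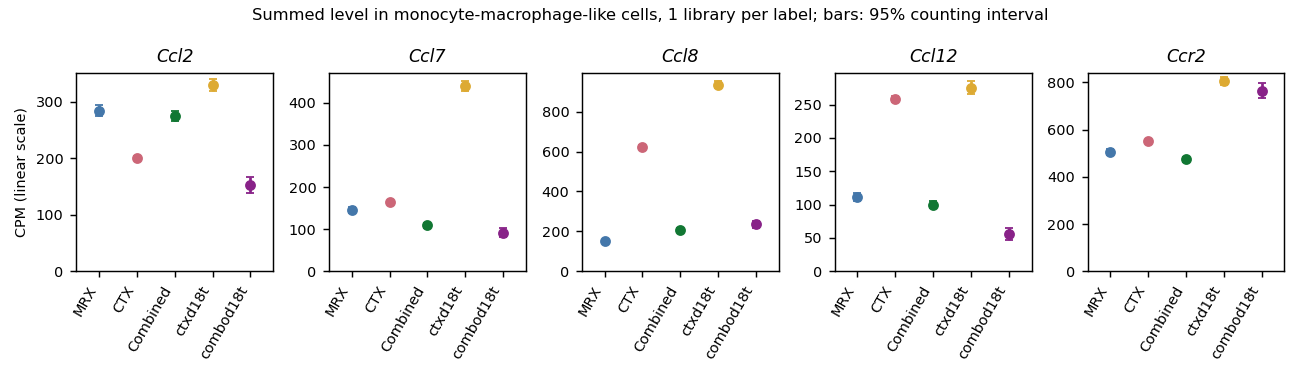
CPM of each gene in the summed monocyte-macrophage-like class of each library, on a linear axis from 0, with exact 95% Poisson intervals. Ccl8 and Ccl12 are high in CTX and ctxd18t, and Ccr2 is at 763 CPM or more in both day 18 libraries.

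The first comparison asks what the Combined label adds to CTX. A log2 ratio of CPM + 1 of at least 1 in either direction was counted as past the threshold, which 0.282% of the 3542 expressed genes of the class reached (0.198% lower and 0.0847% higher in Combined). Genes with at least 100 counts in the pair and 50 CPM in either library were taken as expressed, and all 5 genes passed this filter in every comparison. Of the 5 genes, 2 passed it, both lower in Combined: Ccl8 at -1.58 (95% counting interval -1.64 to -1.53) and Ccl12 at -1.37 (-1.46 to -1.30). Given the same mix of clusters in both libraries they stood at -0.70 and -0.92, so neither passed. Cluster 0, a cluster led by Ly6i and low in Ccl8, was 67.0% of the class in Combined and 48.3% in CTX. Ccl7 was at -0.58 (-0.67 to -0.51) and Ccr2 at -0.21 (-0.25 to -0.18). Ccl2 went the other way, at 0.46 (0.40 to 0.51). The median of the 5 genes was -0.58, against 0.07 over all expressed genes.

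At day 18 all 5 values were below 0 in combod18t against ctxd18t, and all 4 ligands passed the threshold, against 1.39% of 3965 expressed genes in either direction (1.08% lower, 0.303% higher). Ccl12 was at -2.29 (-2.54 to -2.08), Ccl7 at -2.24 (-2.44 to -2.08), Ccl8 at -1.99 (-2.10 to -1.88) and Ccl2 at -1.11 (-1.26 to -0.98). Ccr2 was at -0.07 (-0.14 to -0.01), and at -0.54 with the mixed clusters kept in the class. Ccl2 stood at -0.78 with each cell thinned to 1000 UMIs and at -0.89 as a mean of each cell's CPM, below the threshold in size. The median of the 5 genes was -1.99, against 0.04 over all expressed genes. Monocyte-macrophage-like cells of combod18t also carried 582 CPM of summed erythroid markers, 5 of 5 detected, against 0.353 to 3.32 CPM in the other 4 libraries. T cell markers summed to 89.7 CPM in combod18t and 192 in ctxd18t. The part of these transcripts in the ratios was not tested.

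CTX against MRX gave 2 of the 5 genes past the threshold, both higher in CTX, where 3.45% of 3538 expressed genes passed in either direction (2.2% higher, 1.24% lower). Ccl8 was at 2.03 (1.97 to 2.11) and Ccl12 at 1.22 (1.14 to 1.31), with Ccl7 at 0.18, Ccr2 at 0.12 and Ccl2 at -0.50. Ccl12 stood at 0.89 after thinning and at 0.72 with the same mix of clusters in both libraries. Combined against MRX gave 0 of 5, where 6.3% of 3653 expressed genes passed (3.39% higher, 2.9% lower), with values from -0.40 for Ccl7 to 0.45 for Ccl8. Given the same mix of clusters, Ccl8 was at 2.04 in this comparison, and as a mean of each cell's CPM at -0.012. In that comparison the interval of Ccl2 (-0.11 to 0.02) covered 0. CTX and MRX each enter 2 of these comparisons, and Combined does too, so the comparisons are not independent.

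**Figure D3:**
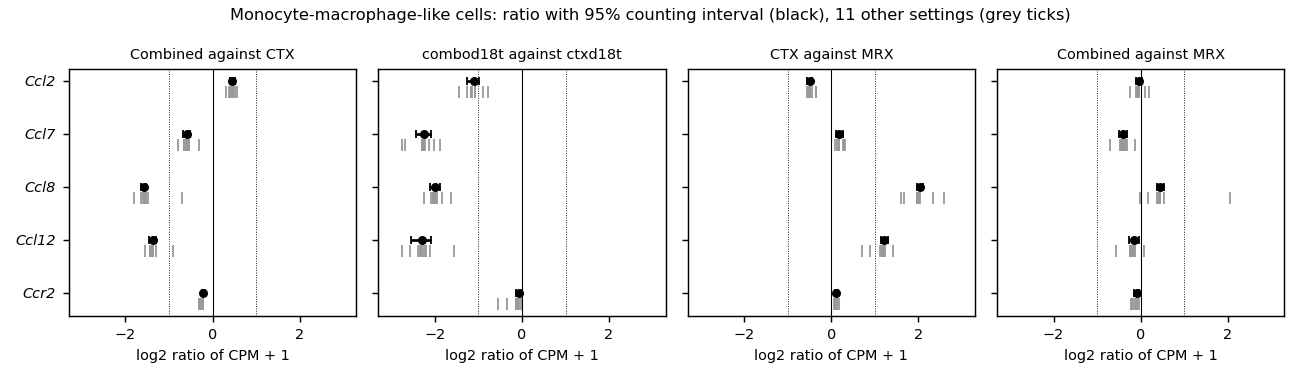
Log2 ratio of CPM + 1 in monocyte-macrophage-like cells for the 4 comparisons, black points with 95% counting intervals, grey ticks for 11 other settings, dotted lines at -1 and 1. Ccl8 and Ccl12 lie left of 0 in the 2 leftmost panels, and Ccl2 lies on opposite sides.

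Counting intervals understate the uncertainty of the ligands, because a few cells carried most of their counts. The 10% of monocyte-macrophage-like cells with the most counts of a gene held 74.6% to 97.5% of the ligand counts in a library, against 28.7% to 32.0% for Ccr2. In ctxd18t 1 cell held 1565 Ccl8 counts, 14.7% of the class. In combod18t a single cell held 34.8% of the Ccl7 counts, 29.3% of the Ccl8 counts and 15.6% of the Ccl2 counts. Without the highest cell of each library, Ccl7 at day 18 moved from -2.24 to -2.75 and Ccl8 from -1.99 to -2.25.

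Shares of cells with a UMI, after each cell was thinned to 1000 UMIs, give a second readout that 1 very high cell cannot carry, though they too depend on how much each cell holds. Their intervals cover the sampling of cells within 1 library each and say nothing of the spread between animals. Between 3 and 9 cells of the class per library were shallower and left out. For Ccl2 the share of monocyte-macrophage-like cells was 11.2% (MRX), 11.3% (CTX), 12.6% (Combined), 13.1% (ctxd18t) and 10.1% (combod18t). Without thinning the Ccl2 shares were 27.9%, 38.5%, 35.1%, 43.2% and 35.7% in that order. The Combined share minus the CTX share was 1.27 percentage points (95% Newcombe interval -0.77 to 3.5), and at day 18 the difference was -3.03 points (-7.28 to 2.19). Ccl12 shares were 5.43% in Combined against 11.7% in CTX (difference -6.26 points, -7.80 to -4.53) and 3.67% in combod18t against 9.47% in ctxd18t (-5.80 points, -8.74 to -1.90). For Ccl8 the differences were -4.79 points (-6.38 to -3.00) in Combined against CTX and -4.19 points (-8.12 to 0.74) at day 18, where the shares were 8.26% and 12.4%. For Ccl7 they were -2.83 points (-4.19 to -1.27) and -9.49 points (-12.9 to -5.16). Of the 4 ligands, Ccl2 had an interval that covered 0 in both pairs of libraries and Ccl8 at day 18. B-like cells, at median depths of 4023 to 8313 UMIs against 8113 to 13260, had a Ccl8 UMI in 0% to 3.65% of cells after thinning (3.47% to 9.88% before), and a Ccl2, Ccl7 or Ccl12 UMI in at most 0.694%.

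For Ccr2 the thinned share of monocyte-macrophage-like cells was 36.4% (MRX), 39.4% (CTX), 33.2% (Combined), 49.7% (ctxd18t) and 40.4% (combod18t), and 83.9% to 92.3% before thinning. The share in Combined minus that in CTX was -6.21 points (-9.24 to -3.09), and at day 18 the difference was -9.29 points (-16.5 to -1.76).

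**Figure D4:**
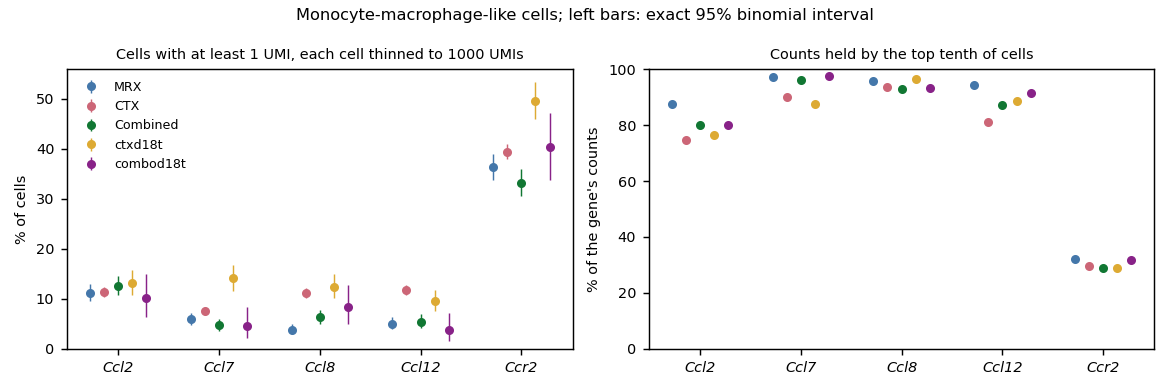
Left, share of monocyte-macrophage-like cells with at least 1 UMI of each gene after thinning to 1000 UMIs per cell, with exact 95% binomial intervals. Right, share of each gene's counts held by the 10% of cells with the most, where the ligands lie between 74.6% and 97.5% and Ccr2 between 28.7% and 32.0%.

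Ccl2 and Ccl7 were often seen in the same cells. In CTX, 43.3% of the cells with a Ccl7 UMI also had a Ccl2 UMI, against 8.73% of those without, and in ctxd18t the shares were 51% and 6.93%. Ccl8 and Ccr2 went the other way in CTX, where 31.6% of Ccl8-positive cells had a Ccr2 UMI against 40.4% of the rest, and in ctxd18t, with 29.3% against 52.6%. The intervals of both pairs of shares did not overlap. In MRX, Combined and combod18t the Ccr2 share was also lower among Ccl8-positive cells, with overlapping intervals.

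The 4 monocyte-macrophage-like clusters differed in ligand and in receptor. Cluster 0 was led by Ly6i, Inhba, Lpl and Cxcl9, cluster 1 by the complement genes C1qa, C1qb and C1qc, cluster 8 by F13a1, Vcan and Fn1, and cluster 11 by interferon-induced genes such as Rsad2, Ifit2 and Mx1. Cluster 1 made up 50.7% of the class in combod18t, and cluster 8 made up 43.6% in ctxd18t. Values are given for clusters with at least 20 cells in a library, which leaves out cluster 11 in combod18t.

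Ccl8 was highest in cluster 1 in every library, with 263 CPM (MRX), 1482 (CTX), 989 (Combined), 1538 (ctxd18t) and 474 (combod18t). In cluster 0 it measured 7.84 to 117 CPM, in MRX, Combined and combod18t below the T-like level. Ccl12 was highest in cluster 11 in MRX (914 CPM), CTX (596 CPM) and ctxd18t (540.5 CPM), and in cluster 1 in Combined (240.0 CPM). Ccl2 varied less across the clusters than Ccl8 or Ccl12 in each library, at 226 to 448 CPM (MRX), 133 to 340 (CTX), 221 to 419 (Combined), 85.8 to 423 (ctxd18t) and 129 to 188 (combod18t). Ccr2 was lowest in cluster 1 in all 5 libraries, at 340 to 480 CPM, and reached 1115 CPM in cluster 8 of ctxd18t and 1208 CPM in cluster 8 of combod18t.

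**Figure D5:**
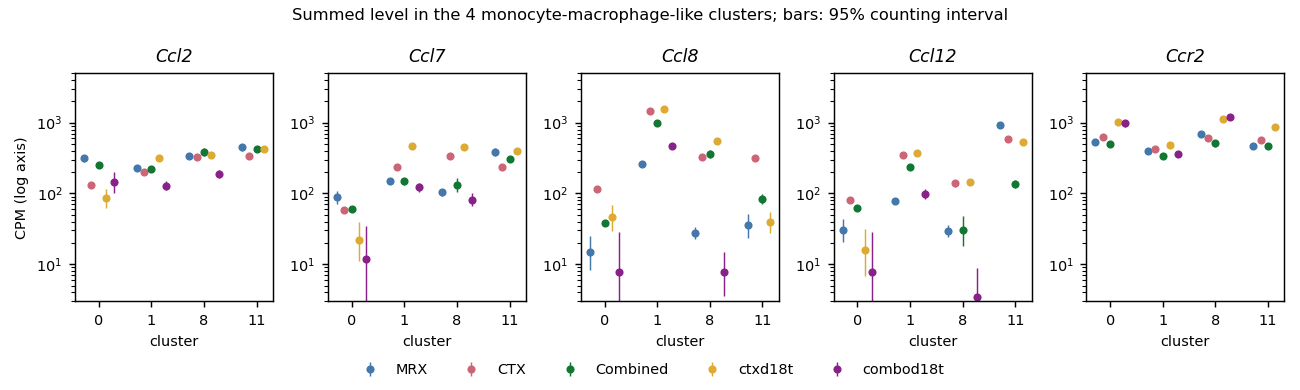
CPM on a log axis of each gene in monocyte-macrophage-like clusters 0, 1, 8 and 11 by library, for clusters with at least 20 cells, with exact 95% Poisson intervals. Ccl8 peaks in cluster 1 and Ccr2 is lowest there.

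Combined against CTX within the clusters, Ccr2 was lower in all 4, from -0.25 to -0.33, and each interval lay below 0. Ccl2 was higher in all 4, with 0.92 in cluster 0 (252 against 133 CPM, 0.85 to 1.00) and 0.15 to 0.30 elsewhere. Ccl8 was lower in cluster 11 (-1.91) and cluster 1 (-0.58). In cluster 0 it measured 38.3 CPM in Combined, not above the 44.6 CPM of T-like cells there, against 117 in CTX. Its interval in cluster 8 (-0.06 to 0.37) covered 0. Ccl12 was lower in all 4, from -0.33 in cluster 0 to -2.16 in cluster 8.

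At day 18 the ligand differences were found within clusters 1 and 8, which hold most of the class. In cluster 1, Ccl8 was at -1.70 (474 against 1538 CPM), Ccl7 at -1.94, Ccl12 at -1.91 and Ccl2 at -1.27. In cluster 8, Ccl7 was at -2.46 (-2.79 to -2.18) and Ccl2 at -0.91 (-1.13 to -0.71), the latter below the threshold in size. Ccl8 there had 2648 counts in ctxd18t (551 CPM) and 9 in combod18t (7.85 CPM), the latter not above the 8.71 CPM of T-like cells, so no ratio is given. Ccl12 had 693 counts and 4, at -5.01 (-7.25 to -4.01). Ccr2 was lower in cluster 1 (-0.41) and slightly higher in cluster 8 (0.12, interval 0.03 to 0.20).

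Outside this class, Ccr2 was lower in combod18t than in ctxd18t in NK-like cells (-1.16, -1.34 to -0.98, 109 cells in each), conventional dendritic-like cells (-0.80), neutrophil-like cells (-0.86), T-like cells (-0.76) and pDC-like cells (-0.39). It was higher in B-like cells (13.3 against 2.77 CPM, and 6.43 against 1.99 without the highest cell of each) and in cluster 21 (86.3 against 39.0 CPM, on 14 and 24 counts). Within T cells the T-like value mixes clusters, and clusters 5 and 9 gave -0.38 and -0.48. In Combined against CTX, neutrophil-like cells were at -1.31 (120 against 300 CPM, 77 and 91 cells), conventional dendritic-like cells at -1.02 (233 against 474 CPM, 85 and 405 cells) and NK-like cells at -0.25, and T-like cells at 0.09 with an interval that reached 0.

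Among other genes of the chemokine system in monocyte-macrophage-like cells, 6 of the 13 expressed genes in the list of other chemokines passed the threshold at day 18, all lower: Ccl24 (-2.10), Cxcl3 (-1.76), Ccl5 (-1.75), Cxcl10 (-1.65), Ccl4 (-1.40) and Cxcl1 (-1.17). Over all 3965 expressed genes 1.39% passed in either direction there, 1.08% of them lower in combod18t. The list's median was -0.84. In Combined against CTX 0 of its 10 expressed genes passed, with a median of -0.03, where 0.282% of all 3542 expressed genes passed. None of the 4 expressed other chemokine receptors and decoys, 7 CCR2 signalling genes, or the 8 or 9 expressed inducers of Ccl2 and their receptors passed in either comparison. Of the 7 classical monocyte genes 1 passed in Combined against CTX, where 0.0847% of expressed genes passed as higher. It was Chil3, a chitinase-like protein of monocytes, higher in Combined at 1.79 (179 against 51.3 CPM), and the list's median was 0.70. At day 18, 0 of 7 passed.

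Across 45 class and library sums of at least 20 cells, the ligands correlated with each other at Pearson's r of 0.87 to 0.92 and with Ccr2 at 0.20 to 0.34, a description over sums that share libraries and depth. The genes most like Ccl2 were Stab1 (r = 0.91), C1qb, Rab3il1, Thbd and Trem2. Ccl7 was closest to Ms4a7 (0.88), Ccl8 to C1qb (0.87) and Ccl12 to Rab3il1 (0.88).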

How the data were processed

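The authors deposited raw UMI counts (whole numbers, 1 value for each gene in each cell) made with cellranger 9.0.1 per the file headers. The submitters' processing notes name Seurat 5.2.0 and GRCm39. The 5 genes and all lists were chosen with earlier results of these data known.

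Cells needed at least 200 genes and at most 15% mitochondrial counts. Scrublet (scanpy 1.11.5) called under 0.5% of cells, so the highest 5% by score were removed (3.98% to 4.94% per library, as ties stayed). Counts scaled to 10000 per cell gave 2000 variable genes, without the 5 genes and without most context genes, 30 components, 15 neighbours and Leiden clusters (leidenalg 0.10.2) at resolution 1. The 4 clusters named monocyte-macrophage-like, and the other classes, took the class of highest mean over their 5 best markers. This scoring, and the rule on mixed clusters (next lineage at 0.4 times the best, depth above 1.5 times), were set after seeing the data. Cluster 17, led by Jchain, belongs to the B-like class.

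Counts were summed per class and library and given as CPM with exact Poisson intervals. Ratios are log2 of CPM + 1 with exact conditional binomial intervals. Shares used cells thinned to 1000 UMIs. Genes of the context lists are named where their log2 ratio is at least 1 in size in Combined against CTX or combod18t against ctxd18t, and the genes most like a member are the 5 with the highest Pearson correlation. The ratio code was tested on simulated data. Some genes that these rules would name are not reported here.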

Additional observations from a re-analysis of the deposited data

Results flagged for a closer look

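Ccl2 went opposite ways in the 2 pairs of libraries that set a combined label against a CTX label. In monocyte-macrophage-like cells its log2 ratio was 0.46 (95% counting interval 0.40 to 0.51) for Combined against CTX and -1.11 (-1.26 to -0.98) for combod18t against ctxd18t. With 1 library per label the difference between the pairs was not tested. The CPM values were 275 against 200 in the first pair and 152 against 329 in the second. The shares of cells with a Ccl2 UMI after thinning were 12.6% against 11.3% and 10.1% against 13.1%. The intervals of both differences covered 0: 1.27 points (95% Newcombe interval -0.77 to 3.5) and -3.03 points (-7.28 to 2.19). With each cell thinned to 1000 UMIs the log2 ratios were 0.55 and -0.78. In cluster 0 the ratio was above 0 in both pairs, at 0.92 and, on 37 and 43 counts from 21 and 42 cells, 0.75 (0.08 to 1.43).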

How the results depend on the processing

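No paired analysis was possible because each label has 1 library, and no replicate could be left out for the same reason. Of 220 values of the log2 ratios of the 5 genes under 11 other settings, 216 had the sign of the value reported and 148 lay within its counting interval. The settings were 500 genes per cell, 10% mitochondrial counts, no doublet removal, resolution 2, mixed clusters kept, thinning, a pseudocount of 10 CPM, median-of-ratios scaling, a mean of each cell's CPM, and, chosen after seeing the data, the highest cell left out and an equal mix of clusters. With an equal mix, 0 genes in place of 2 passed the threshold for Combined against CTX, 1 in place of 2 for CTX against MRX, and 1 in place of 0 for Combined against MRX. Thinning left 1 in place of 2 for CTX against MRX. The reversals were in Combined against MRX: Ccl8 at -0.012 as a mean of each cell's CPM, and Ccl12 at 0.086 with an equal mix. The cause was not tested. The other 2 sign changes were Ccl2 in that comparison, whose interval covered 0. With no filter on low counts, the genes past the threshold were 0.328%, 3.21%, 1.73% and 3.5% in the 4 comparisons in the order given. Shares of counts held by the class moved by up to 42.9 percentage points, for Ccl8 in combod18t with mixed clusters kept. At day 18, the 221 cells of combod18t limit depth.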
